A study of Mus musculus with 778 samples.

Results

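The sirtuins are lysine deacylases that consume NAD+ with each acyl group they remove, so the family ties the acylation of proteins to the NAD+ supply of a cell. In mammals SIRT1, SIRT6 and SIRT7 act mainly in the nucleus (SIRT7 in the nucleolus), SIRT2 mainly in the cytoplasm, and SIRT3, SIRT4 and SIRT5 in mitochondria. In oocytes the family is known for links to oxidative stress, spindle assembly and chromatin state. The 7 genes *Sirt1* to *Sirt7* were taken by symbol from a single-cell table of 23201 genes. Of these 7, 6 reached 10 CPM, the UMI count of a gene over the total of a stage scaled to 1000000, in at least 1 stage, as did 8671 of all genes, and *Sirt3* did not.

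The cells were oocytes taken from ovaries of wild type ICR mice and staged by diameter. Non-growing oocytes (NGO, under 20 µm, 46 cells) came from mice aged 3 to 4 days. The growing stages GO1 (30 to 45 µm, 51 cells), GO2 (50 to 55 µm, 26 cells) and GO3 (60 to 65 µm, 44 cells) and the fully grown oocytes (FGO, over 70 µm, 56 cells) came from mice aged 3 to 4 weeks. A step from NGO to a later stage is therefore also a step in the age of the mouse, and the effects of age and growth cannot be told apart. Each transcript was counted once by its unique molecular identifier (UMI).

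Stage totals ran from 24976634 UMIs in GO2 to 64311908 in FGO, and single cells from 22279 to 3898137 UMIs. The median GO1 cell held 110146 UMIs against at least 540432 in every other stage, and the 10 deepest GO1 cells held 80.4% of the UMIs of that stage. All 13 oocyte identity genes checked reached 10 CPM in every stage, with a summed level of 17391 to 31129 CPM. The summed level of 11 granulosa markers was 15.99 CPM in NGO, 44.6 CPM in GO1 and 20.8 to 36.8 CPM later. From NGO to GO1, the step at which *Sirt1* also rose, *Cyp19a1* rose from 1.11 to 16.3 CPM and *Nr5a2* from 6.91 to 14.5 CPM, while *Foxl2* and *Amh* were near 0 in every stage. The summed stroma markers lay between 2.95 and 13.97 CPM, with NGO highest, where the median cell was at 4.05 CPM and the highest cell at 246.3 CPM. *Ptprc*, *Cdh5* and both haemoglobin genes were at or near 0, while *Pecam1* was at 4.60 CPM in NGO and 37.6 CPM in GO1. The part of such cells in the results was not tested.

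The cell names gave the stage but neither the animal nor the library, so each stage was 1 pooled sample. No test between stages was made, and all intervals are exact 95% intervals that cover counting error only. A gene was said to rise or fall, or to pass the size rule, where the level from the summed UMIs changed by 2-fold or more between stages and the higher of both levels was 10 CPM or more. Below, both this level and the values of the single cells are given, because the sum follows the deep cells whereas the mean over cells weights every cell equally.

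All 7 members had a RefSeq promoter window in the GRCm38.p6 assembly, and a pair is printed to set the start region of the member that rose most from NGO to GO1, *Sirt1*, beside that of the member that fell at this step, *Sirt2*. Bases run 5′ to 3′ up to the base before the start of transcription. Capitals mark CACGTG, the palindromic E-box, and GGGCGG or its reverse complement CCGCCC, the GC box. For *Sirt2* only the stretch that is free of the neighbouring gene *Nfkbib* is shown.
Sirt1, chr10:63339036-63339285, minus strand: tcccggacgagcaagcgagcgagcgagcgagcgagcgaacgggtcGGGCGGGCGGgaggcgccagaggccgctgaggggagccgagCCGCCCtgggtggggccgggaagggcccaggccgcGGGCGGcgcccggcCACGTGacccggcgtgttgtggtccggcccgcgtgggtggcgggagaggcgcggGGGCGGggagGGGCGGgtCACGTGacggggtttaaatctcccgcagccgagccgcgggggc
Sirt2, chr7:28766645-28766751, plus strand: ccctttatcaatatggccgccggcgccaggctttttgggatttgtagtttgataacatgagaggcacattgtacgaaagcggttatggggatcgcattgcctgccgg

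The *Sirt1* window of 250 bases held 39 CpG dinucleotides, more than 98.4% of 32851 promoter windows of that length, whose median was 6. It held 2 E-boxes and 6 GC boxes counted on both strands, of which a pair overlap each other. An E-box was present in 6.02% of all windows and at least 2 in 0.429%, and a GC box in 32.7%. The full *Sirt2* window held 13 CpG dinucleotides, no E-box and 1 GC box, which lies outside the stretch printed. No other member had an E-box in its window, and TAATTG, searched on both strands as the element of the oocyte factor NOBOX, was in none of the windows of the 7 members and in 7.17% of all. These counts describe letters in the windows and were not tied to binding.

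The summed level of the family moved little, with 295.9, 311, 335, 326 and 333 CPM in the order of growth. Its make-up changed more. *Sirt6* gave 38.96% of the family's UMIs in NGO and 21.6% to 25.7% in the later stages, whereas *Sirt7* gave 37.5% in NGO and 46.05% to 54.4% later. The share of *Sirt1* was 1.65% in NGO and 11.01% in GO1, and that of *Sirt2* was 12.97% in NGO and 4.60% in GO1. These shares come from the stage sums, and those of GO1 follow its deep cells. By the mean over cells the family was at 293 CPM in NGO and 192 CPM in GO1. *Sirt7* was at 109.8 and 71.8 CPM by that measure, so its share did not rise in GO1, and *Sirt1* was at 4.23 and 51.5 CPM. Per cell, the median of the family's summed CPM was 293, 169, 324, 318 and 307 CPM from NGO through to FGO, so GO1 was the stage in which the typical cell and the stage sum were farthest apart.

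**Figure D1:**
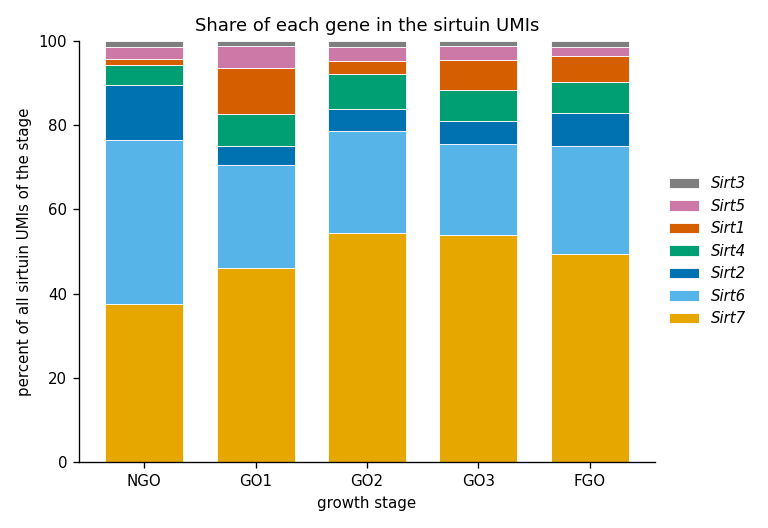
Share of the summed UMIs of Sirt1 to Sirt7 (percent, vertical axis) that each member gave in NGO, GO1, GO2, GO3 and FGO (horizontal axis), from UMIs summed over the cells of a stage. Sirt6 and Sirt7 together gave most of the family's UMIs in every stage, and the share of Sirt1 was 1.65% in NGO and 11.01% in GO1.

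To set members against each other, CPM was divided by the length of the gene model, and levels in CPM per kb are used for the order of the members. In NGO *Sirt6* was highest at 41.4 CPM per kb, followed by *Sirt7* at 21.6, *Sirt2* at 10.8, *Sirt4* at 5.76, *Sirt5* at 3.66, *Sirt3* at 2.96 and *Sirt1* at 0.916. The counting intervals of *Sirt5* and *Sirt3* overlapped there. In GO1 *Sirt7* at 27.8 CPM per kb and *Sirt6* at 27.3 overlapped, and *Sirt1* at 6.43 stood above *Sirt2* at 4.01. In GO2 *Sirt7* led with 35.4 CPM per kb over *Sirt6* with 29.2 and *Sirt4* with 11.7. *Sirt1* was again the lowest member per kb in GO2, at 1.97 CPM per kb. Without the division *Sirt1* was above *Sirt3* in GO2, at 10.5 against 4.80 CPM, and near it in NGO, at 4.88 against 4.64 CPM. In GO3 the order was *Sirt7* at 34.1, *Sirt6* at 25.3, *Sirt4* at 9.86, and then *Sirt2*, *Sirt5* and *Sirt1* at 5.14, 4.88 and 4.43 CPM per kb, where neighbours among the last 3 overlapped. In FGO *Sirt7* at 31.9 and *Sirt6* at 30.6 CPM per kb overlapped once more. Within single cells *Sirt6* was the top member per kb in 45 of 46 NGO cells. *Sirt7* was the top member in 19 of 26 GO2 cells, 35 of 44 GO3 cells and 33 of 56 FGO cells. Per kb, GO1 cells had no common leader, with *Sirt1* on top in 16 of 51 cells, *Sirt7* in 15 and *Sirt6* in 14. This order depended on the division by length. By CPM without it, *Sirt6* was highest in 27 and *Sirt7* in 19 of 46 NGO cells. *Sirt7* was then highest in 25 of 51 GO1, 24 of 26 GO2, 43 of 44 GO3 and 50 of 56 FGO cells.

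By the stage sums most changes past the size rule fell on the first step, for the members as for all genes. From NGO to GO1, 2 of the 6 members with at least 10 CPM rose, *Sirt1* and, through the deep cells alone, *Sirt5*, where 20.6% of all genes tested rose, and 1 fell, *Sirt2*, where 25.7% fell. From GO1 to GO2 no member rose against 0.109% of all genes, and 1 fell, *Sirt1*, against 3.03%. From GO2 to GO3 1 member rose, again *Sirt1*, against 3.34% of all genes, and none fell against 1.01%. From GO3 to FGO no member rose or fell, against 2.41% and 3.54% of all genes. Between NGO and FGO directly, 1 of 5 members was higher in FGO, *Sirt1*, against 11.3% of all genes, and no other member differed in either direction, as 27.3% of all genes did. By the stage sums *Sirt1* was thus the only member that passed the rule after GO1. The median log2 change of the members at or above 10 CPM, and of all such genes, was 0.55 and −0.15 from NGO to GO1, 0.17 and −0.11 from GO1 to GO2, −0.08 and 0.08 on the step to GO3, −0.02 and 0.06 on the step to FGO, and 0.57 and −0.12 between NGO and FGO. These medians come from the stage sums, and the positive one from NGO to GO1 depended on how cells were weighted. By the mean over cells *Sirt2*, *Sirt4*, *Sirt6* and *Sirt7* were 6.76-fold, 1.39-fold, 2.91-fold and 1.53-fold lower in GO1. *Sirt1* and *Sirt5* were 12.2-fold and 1.31-fold higher by that measure. The members past the rule were partly others by the mean over cells. From NGO to GO1 *Sirt1* rose and *Sirt2* and *Sirt6* fell, and from GO1 to GO2 4 members passed the rule, with *Sirt1* falling 5.26-fold while *Sirt2* rose 2.28-fold, *Sirt4* 2.80-fold and *Sirt7* 2.18-fold.

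**Figure D2:**
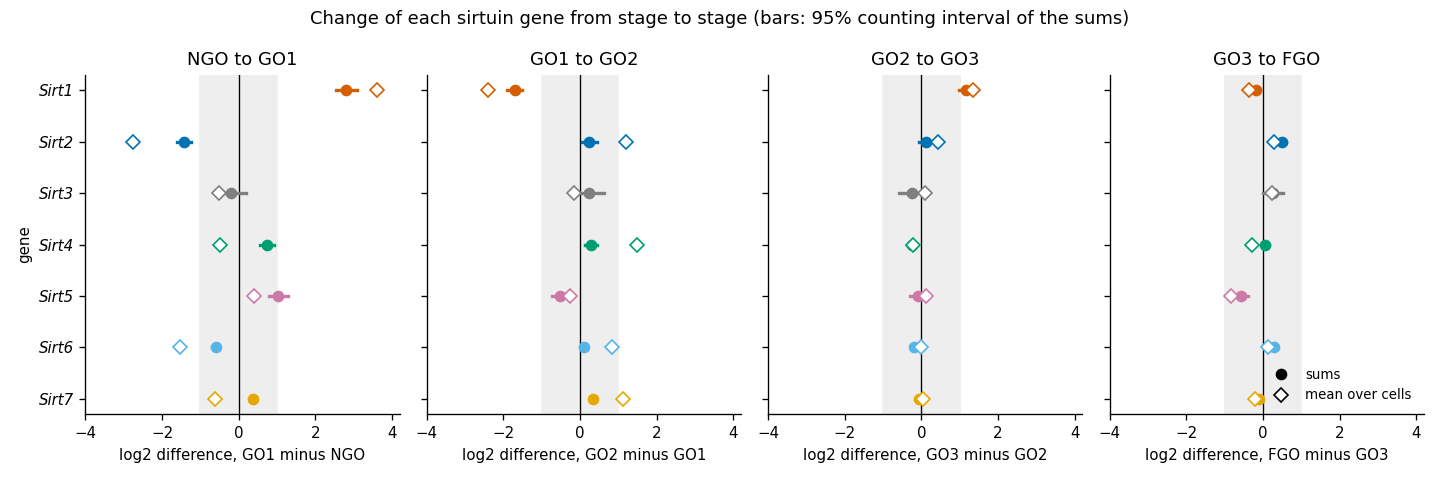
Log2 difference (later minus earlier stage, horizontal axis) of each member (vertical axis) for the steps between neighbouring stages, with filled circles and 95% counting intervals from the stage sums, open diamonds from the mean over cells, and grey shading for changes under 2-fold. From NGO to GO1 Sirt1 is at 2.81 and Sirt2 at −1.42, and from GO1 to GO2 Sirt1 is the only member past the shading by the sums, at −1.71.

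*Sirt1* (chr10:62781753-62844452, minus strand, in the NCBIM37 assembly, as are all gene positions here) encodes a nuclear deacetylase of p53, FOXO factors and histones, and its level went up, down and up again. Its stage level was 4.88, 34.3, 10.5, 23.6 and 20.8 CPM from NGO through to FGO, from UMI counts of up to 1340. The median over cells was 3.71, 25.2, 7.93, 21.2 and 15.4 CPM from NGO through to FGO. NGO cells were the low group and GO1 cells the widest, and the ranges of all stages overlapped. The lowest and highest cells were at 0 and 15.6 CPM in NGO, 0 and 187 CPM in GO1, 0 and 36.3 CPM in GO2, 5.25 and 70.6 CPM in GO3, and 0 and 71.5 CPM in FGO. In GO3 alone no cell lacked a *Sirt1* UMI.

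The rise of *Sirt1* from NGO to GO1 was 7.02-fold (5.81 to 8.55), with 47 of 51 GO1 cells above the NGO median and 0 of 46 NGO cells above the GO1 median. It was 12.2-fold by the mean over cells. The fall from GO1 to GO2 was 3.27-fold (2.85 to 3.76), and 2 of 26 GO2 cells lay above the GO1 median. Among 7356 genes at or above 10 CPM in GO1 or GO2, 0.0952% had a lower log2 change at this step. The rise from GO2 to GO3 was 2.25-fold (1.97 to 2.58), with 43 of 44 GO3 cells above the GO2 median. FGO stood 4.27-fold (3.55 to 5.18) above NGO, with 51 of 56 FGO cells above the NGO median. A single GO1 cell held 29.7% of that stage's *Sirt1* UMIs. Without the cell richest in *Sirt1* UMIs in each stage, a choice made after seeing the data, the GO1 level was 26.5 CPM and the log2 change was 2.51 from NGO to GO1 and −1.46 from GO1 to GO2.

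The same succession of a rise, a fall and a rise over the first 3 steps was found for 8 of the 8671 genes that reached 10 CPM in a stage, *Sirt1* included. The other genes were the acetyltransferase gene *Ep300*, *Ccl2*, *Crls1*, *Pdzd8*, *Pwwp2a*, *Tceanc* and *Tgfbr3*, named after their values were seen. *Ep300* was at 6.19, 15.8, 5.16, 10.7 and 9.11 CPM from NGO to FGO. The GO1 and GO2 sums each enter adjoining steps, so a chance excess in either counts in both. By the mean over cells 22 genes had this succession, and 6 genes had it by both measures. *Sirt1* was among those 6, and *Ep300* and *Ccl2* were not.

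When each cell was thinned to 20000 UMIs, at least 1 *Sirt1* UMI was left in 2.17% of NGO, 43.1% of GO1, 11.5% of GO2, 43.2% of GO3 and 28.6% of FGO cells. Without thinning these shares were 71.7%, 94.1%, 88.5%, 100% and 92.9%. The thinned shares keep the succession seen in the levels, with NGO lowest, although the NGO share rests on 1 cell and the GO2 share on 3 of 26. The GO2 interval of 2.45% to 30.2% overlaps those of NGO, GO1 and GO3.

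**Figure D3:**
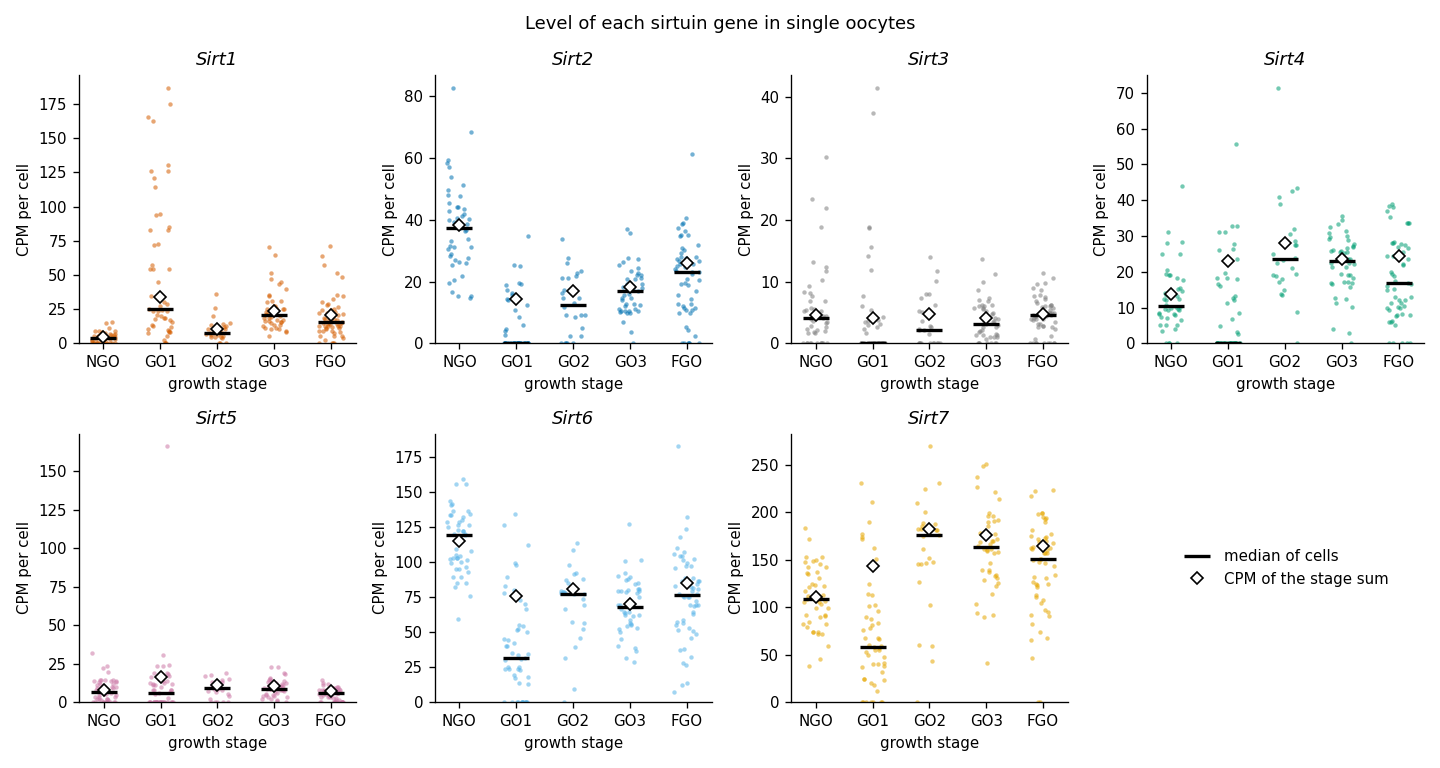
Level in single cells (CPM, vertical axis, linear and set for each gene) of each member by growth stage (horizontal axis). Each point is 1 cell, black bars mark the medians of the cells and diamonds the level over the stage sum. For Sirt1 the median is 3.71 CPM in NGO and 25.2 CPM in GO1, and for Sirt2 it is 37.4 CPM in NGO and 0 CPM in GO1.

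*Sirt6* (chr10:81084530-81090542, minus strand), which encodes a chromatin-bound deacylase of histone H3 with roles in DNA repair, was highest in NGO and did not pass the size rule at any step of the stage sums. Its level was 115.3, 76.1, 81.2, 70.4 and 85.3 CPM from NGO through to FGO. The cell medians were 119.7, 31.9, 77.6, 68.004 and 76.6 CPM in the same order, and the cell ranges overlapped between all stages. NGO cells ran from 59.7 to 159.6 CPM and GO1 cells from 0 to 134.7 CPM. GO1 was 1.52-fold (1.43 to 1.60) below NGO by the sums and 2.91-fold below by the mean over cells, and 2 of 51 GO1 cells lay above the NGO median. Whether *Sirt6* passed the size rule at this step thus depended on how cells were weighted. FGO was 1.35-fold (1.29 to 1.41) below NGO and 1.21-fold (1.16 to 1.26) above GO3.

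*Sirt7* (chr11:120479686-120486554, minus strand), which encodes the nucleolar sirtuin tied to ribosomal RNA transcription, changed less than 2-fold at every step of the stage sums. The level was 110.96, 143.3, 182, 176 and 164 CPM from NGO through to FGO. Cell medians were 108.3, 58.6, 175.8, 163.0 and 150.5 CPM, so by the typical cell GO1 was the low stage and not a step between NGO and GO2. GO1 cells spanned 0 to 231 CPM and enclosed the whole NGO range of 38.5 to 183 CPM. GO1 was 1.29-fold (1.23 to 1.36) above NGO by the sums but 1.53-fold below it by the mean over cells. FGO was 1.48-fold (1.42 to 1.54) above NGO. *Sirt7* shares exon bases on the same strand with *Mafg*, and reads there could belong to either gene.

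*Sirt2* (chr7:29551754-29573684, plus strand), which encodes a deacetylase of α-tubulin in the cytoplasm, was the only member that fell from NGO to GO1 by the stage sums. Its stage level was 38.4, 14.3, 16.9, 18.3 and 25.9 CPM from NGO through to FGO, from 967, 383, 423, 913 and 1664 UMIs. Over cells the median was 37.4, 0, 12.3, 17.1 and 23.2 CPM from NGO through to FGO. Every NGO cell had *Sirt2* UMIs, and most GO1 cells had none. NGO cells ran from 14.7 to 82.6 CPM and GO1 cells from 0 to 34.7 CPM, so the groups overlapped. The fall from NGO to GO1 was 2.68-fold (2.38 to 3.03) by the sums and 6.76-fold by the mean over cells. None of 51 GO1 cells lay above the NGO median and all 46 NGO cells lay above the GO1 median.

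By the stage sums *Sirt2* passed the size rule at no step after GO1, but by the mean over cells it rose 2.28-fold from GO1 to GO2. FGO was 1.41-fold (1.30 to 1.53) above GO3 and remained 1.48-fold (1.37 to 1.61) below NGO. After thinning, 56.5% of NGO, 7.84% of GO1, 30.8% of GO2, 22.7% of GO3 and 30.4% of FGO cells kept a *Sirt2* UMI, against 100%, 37.3%, 80.8%, 97.7% and 89.3% without thinning. NGO was the highest stage and GO1 the lowest by both readings. *Sirt2* overlaps *Nfkbib* by 42 exon bases on the opposite strand, and *Sirt1* overlaps *Gm16145* by 65. The strand setting of the counting was not given in the sources used here.

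*Sirt3* (chr7:148049569-148068208, minus strand), the gene of the main mitochondrial deacetylase, varied least of the members by the stage sums and stayed under 10 CPM in every stage. It was at 4.64, 4.07, 4.80, 4.05 and 4.84 CPM from NGO through to FGO, from at most 311 UMIs. The ratio of GO1 to NGO was 0.877, with an interval of 0.670 to 1.15 that includes no change. Cell medians were 4.05, 0, 2.24, 3.14 and 4.58 CPM and the highest cells 30.3, 41.5, 13.99, 13.7 and 11.5 CPM, with overlap between all stages. *Sirt3* shares exon bases with *Psmd13* on the opposite strand.

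*Sirt4* (chr5:115928019-115934734, minus strand), which encodes a mitochondrial lipoamidase and ADP-ribosyltransferase, was lowest in NGO by the stage sums. It was at 13.8, 23.03, 27.99, 23.6 and 24.5 CPM from NGO through to FGO. The cell medians were 10.5, 0, 23.6, 23.01 and 16.8 CPM and the highest cells 44.04, 55.6, 71.4, 35.5 and 38.9 CPM. GO1 thus stood above NGO by the sums, 1.67-fold (1.46 to 1.91), and below it by the mean over cells, 1.39-fold. FGO was 1.78-fold (1.580 to 1.9998) above NGO.

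*Sirt5* (chr13:43460882-43490571, plus strand), which encodes the mitochondrial desuccinylase and demalonylase, was at 7.94, 16.2, 11.3, 10.6 and 7.07 CPM from NGO through to FGO. Cell medians lay close together, at 6.57, 6.19, 8.99, 8.89 and 5.88 CPM, and the ranges overlapped. GO1 exceeded NGO 2.04-fold (1.72 to 2.42) by the sums but 1.31-fold by the mean over cells, and 25 of 51 GO1 cells lay above the NGO median. Without the 10 deepest cells of each stage the log2 change was −0.07, so the rise of *Sirt5* rested on those cells. FGO was 1.495-fold (1.32 to 1.70) below GO3.

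In GO1 most members differed between deep and shallow cells, and *Sirt1* differed in the opposite direction to the others. Among the 51 GO1 cells, the 25 above the median depth had *Sirt2* at 15.1 CPM and the 26 at or below it at 0.663 CPM, from 382 UMIs and 1 UMI. *Sirt4* was at 24.2 CPM in the deeper and 2.65 CPM in the shallower cells, from 612 and 4 UMIs. *Sirt6* was 3.99-fold (2.79 to 5.94) and *Sirt7* 3.89-fold (3.00 to 5.14) higher in the deeper cells. *Sirt1* went the other way, at 33.1 CPM in the deeper and 54.4 CPM in the shallower cells, a ratio of 1.64 (1.29 to 2.06). NGO cells split in the same way had ratios of deeper to shallower cells of 1.07 (0.985 to 1.17) for *Sirt6* and 0.984 (0.903 to 1.07) for *Sirt7*, but 1.72 (1.06 to 2.93) for *Sirt1* and 0.497 (0.339 to 0.735) for *Sirt3*. Differences with depth were also present in GO2, where the ratio was 2.54 (1.76 to 3.79) for *Sirt2*, 3.24 (1.52 to 8.25) for *Sirt3* and 1.40 (1.29 to 1.53) for *Sirt7*. Over GO1 cells Spearman's rho of CPM with depth was −0.29 for *Sirt1*, 0.70 for *Sirt2*, 0.73 for *Sirt4* and 0.38 for *Sirt7*. These rho values describe cells that may share libraries, and depth is itself the divisor of CPM. The level of *Sirt1* above NGO was therefore present in both deep and shallow GO1 cells, while the excess of *Sirt4*, *Sirt5* and *Sirt7* over NGO was present in the deeper cells and not in the shallower ones.

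**Figure D4:**
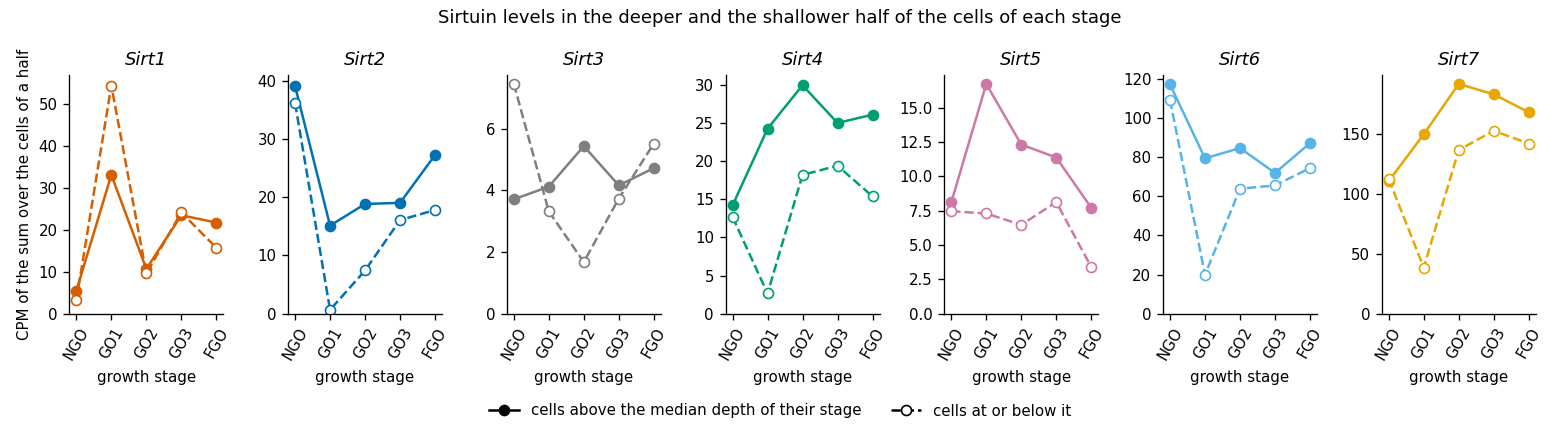
Level of each member (CPM of the summed UMIs, vertical axis from 0, set for each gene) by growth stage, in cells above the median depth of their stage (filled points, solid lines) and in the other cells (open points, dashed lines); lines only join the points of 1 group. In GO1 the shallower cells lie below the deeper ones for Sirt2 (0.663 against 15.1 CPM) and above them for Sirt1 (54.4 against 33.1 CPM).

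Patterns over the 5 stages were compared by the root mean square difference of log2(CPM + 1) after centring each gene on its own mean. Within the family *Sirt4* and *Sirt7* were closest, with a difference of 0.12, and *Sirt1* and *Sirt2* farthest apart, with 1.32. Over 8665 other genes with at least 10 CPM in a stage, the genes nearest to *Sirt1* were *Celsr1* at 0.19, *Samd1* at 0.22 and *Klhl2* at 0.24. Those nearest to *Sirt2* were *Arf5* at 0.020, the zona pellucida gene *Zp3* at 0.029 and *Tmem134* at 0.035. For *Sirt6* they were *Nprl2* at 0.016, *Arpc1b* at 0.031 and *Eif2b2* at 0.032, and for *Sirt7* *Ccpg1os* at 0.035, *Dlgap4* at 0.037 and *Fbxl6* at 0.049. For the mitochondrial members *Dhodh* was nearest to *Sirt3* at 0.019, *Btrc* to *Sirt4* at 0.042 and *Prr5l* to *Sirt5* at 0.027. *Sirt1* thus had no neighbour as close as those of the other members. The measure used the stage sums alone. It is not scaled to the size of a gene's changes, which within the family were largest for *Sirt1*, so its neighbours cannot be compared with the others on equal terms.

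The genes around the family were read from lists by role, as counts of genes with at least 10 CPM that rose or fell from NGO to GO1. Of all genes tested at this step 20.6% rose and 25.7% fell, and counts in small lists can lie near these shares. Among 6 genes of NAD+ metabolism none rose and 2 fell, with a median log2 change of −0.63 against −0.15 for all genes. *Nmrk1*, a nicotinamide riboside kinase, fell from 51.2 to 11.96 CPM, and *Nadk2*, the mitochondrial NAD+ kinase, fell 2.09-fold. By the mean over cells 4 of 7 genes fell, *Nmrk1* among them, and *Nadk2* was 1.72-fold lower and did not pass the rule. *Nampt*, the rate-limiting enzyme of NAD+ salvage, stayed between 15.1 and 18.4 CPM over all stages. Of 4 other NAD+ consumers 1 rose and 1 fell, with a median of −0.18. *Parp1*, the main poly(ADP-ribose) polymerase, fell 6.82-fold, from 119.5 to 17.5 CPM, and the tankyrase gene *Tnks2* rose 2.17-fold. Of 4 sirtuin regulators none rose and 1 fell, the deubiquitinase gene *Usp22*, with a median of 0.40.

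Among 12 genes of nuclear and cytoplasmic substrates 2 rose and 1 fell, with a median of −0.36. *Bub1b*, a spindle checkpoint kinase that SIRT2 deacetylates, rose 7.08-fold from 63.2 to 447 CPM, and *Foxo1* rose 4.39-fold from 28.8 to 126.3 CPM. *Acss2*, the cytoplasmic acetyl-CoA synthetase, fell 4.67-fold from 14.1 to 3.03 CPM. By the mean over cells 2 genes of this list rose and 5 fell.

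Mitochondrial substrates of the family were mostly lower in GO1. Of 15 genes with at least 10 CPM, from a list of 19, none rose and 9 fell, where 20.6% of all genes rose and 25.7% fell. Their median log2 change was −1.20 against −0.15 for all genes. *Acadl*, a long-chain acyl-CoA dehydrogenase, fell 5.30-fold, the aldehyde dehydrogenase gene *Aldh2* 4.66-fold from 292.5 to 62.8 CPM, and *Ppif*, the pore regulator cyclophilin D, 4.18-fold from 93.4 to 22.4 CPM. By the mean over cells 10 genes fell, and the same 9 were among them. By the stage sums *Sirt4* and *Sirt5* themselves did not fall at this step, and *Sirt3* was below 10 CPM in both stages. By the mean over cells *Sirt4* was 1.39-fold lower and *Sirt5* 1.31-fold higher in GO1. *Sirt4* passed the size rule downward in the shallower cells, with a log2 change of −2.26, and after thinning, with −1.04.

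Of 9 lysine acetyltransferases, the enzymes that oppose the family, 3 rose and 1 fell, with a median of −0.11. *Kat6b* rose 4.03-fold, *Ep300* 2.56-fold and *Crebbp* 2.09-fold, and *Kat2a* fell 2.44-fold. By the mean over cells 2 rose, *Kat6b* and *Ep300*, and 3 fell, so that balance turned. Of 5 partners of SIRT7, most of them in ribosomal RNA transcription, none rose and 2 fell, with a median of −0.94. *Ubtf*, the upstream binding factor of RNA polymerase I, fell 2.45-fold from 57.9 to 23.6 CPM and rose 3.18-fold from GO2 to GO3, and the polymerase subunit gene *Polr1b* fell 2.69-fold. By the mean over cells 4 of the 5 partners fell.

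**Figure D5:**
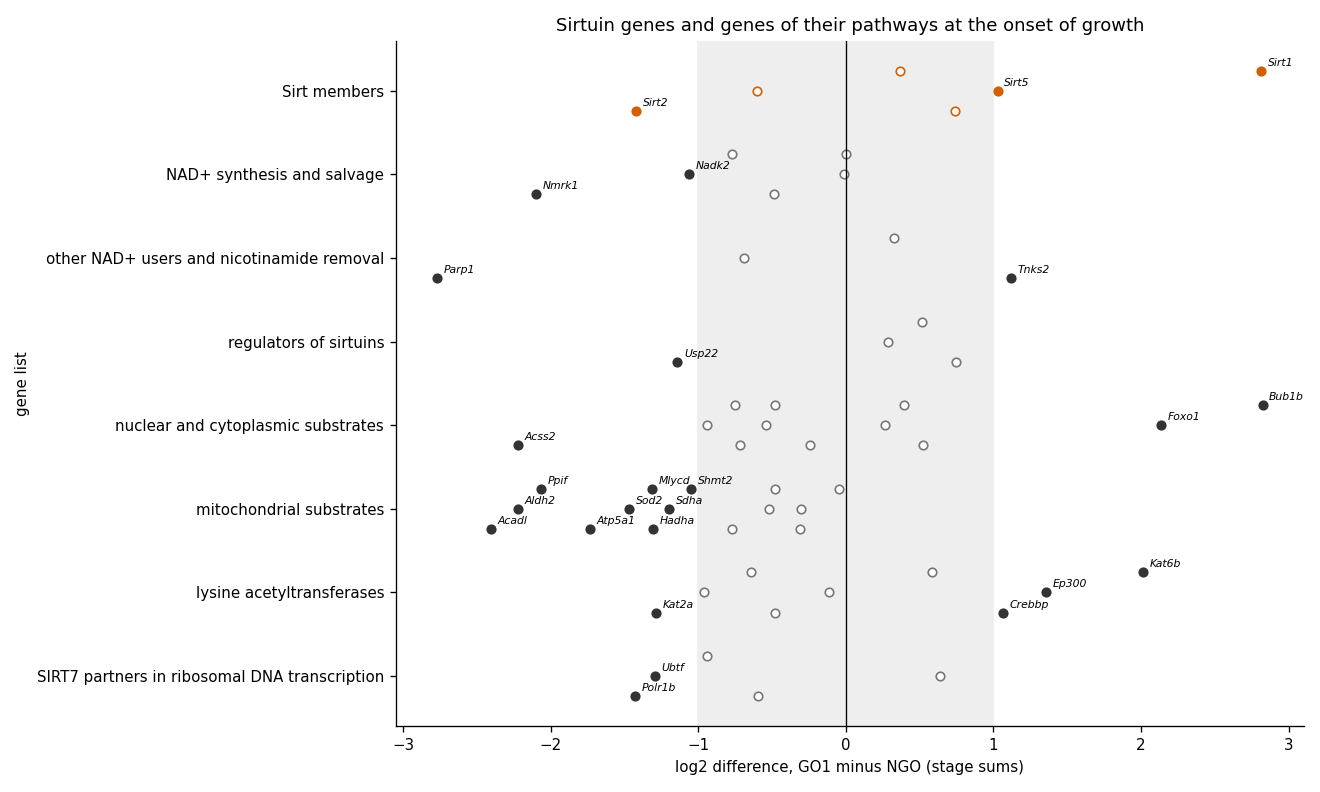
Log2 difference of the stage-sum CPM (GO1 minus NGO, horizontal axis) for each gene at or above 10 CPM in NGO or GO1, by gene list (vertical axis), with the members in orange. Filled and named points changed at least 2-fold, open points lie in the shaded range, and the vertical offset within a list has no meaning. Among the mitochondrial substrates 9 lie left of the shading and none right of it, and Sirt1 lies at 2.81.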

How the data were processed

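Single oocytes were sequenced by the authors in 4 libraries that drew on a common set of 96 cell barcodes. According to the methods of the study, reads were split by cell barcode, trimmed, aligned to the mm9 mouse transcriptome with Tophat and de-duplicated by UMI, and cells were filtered on detected genes, transcript number and ERCC spike-ins, leaving 223 of 296 cells. The deposited table held the raw UMI counts per gene and cell, without normalization. All 96 barcodes occurred in at least 2 libraries and 8 in all 4, and the library of a cell was not given in the sources used here. Cells were assigned to stages by the prefix of their names.

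Levels are the UMIs of a gene summed per stage, scaled to 1000000 UMIs of that stage (CPM), with Poisson, binomial-split and Clopper-Pearson 95% intervals. No doublet caller was run, since the oocytes were picked by hand, and no adjustment for ambient RNA was made. The size rule was at least 2-fold and 10 CPM in the higher stage. It was run on simulated stage sums with known changes and counting error only. Such sums hold no variation between cells, depths or libraries, so they cannot show how the rule behaves under these. Named genes were the 7 members, the 3 genes nearest in pattern to each, of which the nearest alone was given for mitochondrial members, and up to 3 genes in each direction from each list past the rule with the largest changes. Levels per kb used the union of exons of the NCBIM37 annotation. Because UMIs tag molecules, dividing by length sets 1 scale for all members and does not correct a known bias. The members, lists and rules were chosen with earlier results of these data known. The work was done in Python 3.11.15 with matplotlib 3.10.9, scipy 1.17.1, pandas 2.3.3 and numpy 2.4.6, with edgeR 4.0.16 and DESeq2 1.42.0 in R 4.3.3 for scaling factors only.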

Additional observations from a re-analysis of the deposited data

How the results depend on the processing

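The alternatives were TMM and DESeq2 scaling, the mean over cells, 26 cells drawn in every stage, sums without the 10 deepest cells, sums of the shallower cells (at or below the median depth) or of the deeper cells, thinning to 20000 UMIs, other thresholds, and, chosen after seeing the data, sums without the cell richest in the gene. *Sirt1* passed the size rule in the same direction in all 9 settings of cells and scaling, with log2 changes of 2.51 to 5.37 from NGO to GO1, −2.50 to −1.46 from GO1 to GO2, 1.02 to 1.59 from GO2 to GO3 and 1.99 to 4.04 from NGO to FGO. So did *Sirt2* from NGO to GO1, with −5.77 to −1.26. The rise of *Sirt5* from NGO to GO1 reversed to a log2 change of −0.066 without the 10 deepest cells, −0.032 in the shallower cells and −0.39 after thinning. *Sirt4* and *Sirt7* kept their sign at this step in 5 of 9 settings.

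The number of members past the rule from NGO to GO1 was 3, and became 5 in the shallower cells, 4 after thinning, 5 at a 1.5-fold and 1 at a 3-fold threshold. From GO1 to GO2 it was 1, and became 4 without the 10 deepest cells, 4 in the shallower cells, 3 after thinning and 4 by the mean over cells. From GO2 to GO3 it was 1, and became 2 in the shallower cells and 0 at 3-fold. From GO3 to FGO it was 0, and became 1 after thinning. From NGO to FGO it was 1, and became 2 with TMM factors, 2 in the shallower cells, 3 after thinning and 2 at 1.5-fold. The cause of these changes was not tested. Of 315 log2 changes of members under the alternatives, 266 kept their sign and 287 their side of the rule. The highest stage was GO1 for *Sirt1* and NGO for *Sirt2* and *Sirt6* in all 8 planned settings of cells and scaling, and GO2 for *Sirt4* in 7. It was GO1 for *Sirt5* in 5, GO2 for *Sirt7* in 5, and FGO for *Sirt3* in none of the 8. Depth limits *Sirt1* in thinned NGO cells, where 1 UMI was left, and most members in the shallower GO1 cells, where *Sirt2* had 1 UMI and *Sirt4* had 4.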
